A study of Mus musculus with 13 samples.

Results

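Very wide R-loop regions were described in Neuro2a (N2a) cells, a mouse neuroblastoma line, mapped by DNA-RNA hybrid immunoprecipitation and sequencing (DRIP-seq). Overlapping or touching peaks of the 9 libraries that had not been digested with RNase H were merged, and the 2184 merged regions of 5000 bases or more, out of 69497 in all, were kept. The cells carried scramble siRNA (siScramble), siRNA against the RNA helicase DDX1 (siDDX1) or siRNA against EXOSC3, a subunit of the RNA exosome (siEXOSC3), with 3 untreated libraries and 1 RNase H-digested library in each group. Per the study's methods the 3 libraries of a group came from separately seeded plates of the same line, and the labels give no time after transfection. The labels call the siScramble cells wild type and the others knockdowns. In 12 of 12 lists the peak names give another treatment than the sample title, always by the same rotation: the siScramble titles carry siDDX1 peak names, the siDDX1 titles carry siEXOSC3 names, and the siEXOSC3 titles carry siScramble names. The titles set the groups here, so every direction given between groups holds only under the titles. A test across all 3 groups does not turn on this, because the rotation leaves the same libraries together.

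The regions were chosen by their width in the 9 untreated libraries, so their width, recurrence and enrichment in those libraries are descriptions and were not tested against other regions. The rule did not use the group labels, and tests between groups compare libraries. Position on genes, base composition and peaks left after RNase H were not used by the rule. The peak lists hold no read counts, and the read depth behind a call is unknown here.

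An R-loop forms where RNA, usually the transcript being made, pairs with the template strand of the DNA and leaves the other strand single. R-loops are known at the GC-rich starts of genes and around their ends, where transcription pauses and terminates. RNase H cuts the RNA of the hybrid, and helicases and RNA processing factors keep hybrids in check. In DRIP the DNA is cut with restriction enzymes before the S9.6 antibody pulls hybrids down, so a whole restriction fragment comes down with the hybrid it holds. A peak can therefore mark a fragment that is longer than its hybrid.

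The edges of the wide regions show that digest in the DNA itself. Of 4368 edges, 2527 coincided with a cut by BsrGI, EcoRI, HindIII, SspI or XbaI, and 737 regions (33.7%) ran from cut to cut. BsrGI sites made 674 of these edges, XbaI 640, HindIII 601, SspI 472 and EcoRI 140. The following 30-base windows (mm9, plus strand) are shown because they end some of the widest regions, with the enzyme's recognition site in capitals.
Grk6, Prr7 and Dbn1, left edge, HindIII, in an intron of Grk6, chr13:55559748-55559777: ttgaaaataagaAAGCTTcaaatacagaag
Grk6, Prr7 and Dbn1, right edge, HindIII, in an intron of Dbn1, chr13:55584433-55584462: gcaaggtacaggAAGCTTtgcttaaggaaa
Fasn, left edge, EcoRI, between genes, chr11:120664102-120664131: ggctttatatctGAATTCttgtgtctgtca
Plec, left edge, XbaI, between genes, chr15:75998946-75998975: tcagaggcagcaTCTAGAgagtcagttcat
Gnas, left edge, BsrGI, between genes, chr2:174108223-174108252: agcatttaaggcTGTACAtgaactcctaga
Gnas, right edge, XbaI, in an intron of Gnas, chr2:174128669-174128698: aattctataatgTCTAGAgagctgaggctt
Left edges lay on a cut in 58.8% of wide regions and right edges in 56.9%, against 32.9% of left edges and 32.9% of right edges of the other merged regions. When the left edges of wide regions were shifted by 300 bases, 0.275% of them lay on a cut.

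Most wide regions spanned more than 1 restriction fragment. The wide regions held a median of 4 cut positions inside (quartiles 2 and 6, at most 26), and 138 (6.32%) held none. With cuts at the edges left out, wide regions held 0.591 cuts per kb and the other merged regions 0.401. The genome has 1.86 per kb with every cut counted. Many edges lay on a cut, so these densities are not like for like and their order was not tested. Fragments of 5000 bases or more make up 0.0525% of all fragments and 1.45% of the genome's bases. They held 17.8% of the bases of wide regions and 2.31% of the bases of other regions. Such a fragment touched 484 wide regions (22.2%) and 1453 other regions (2.16%). Every other region is narrower than 5000 bases and cannot hold such a fragment whole. The width rule thus favours this contrast, which was not tested.

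G-rich stretches on the coding strand favour hybrids in textbook accounts, because an RNA rich in G binds its template tightly. The next windows are the 100 bases with the most G over C on the coding strand outside annotated exons, in 3 of the widest regions that hold a single protein-coding gene. They are written along the coding strand, with runs of 4 or more G in capitals. These 3 lie in introns of their gene.
Plec, minus strand, chr15:76015262-76015361: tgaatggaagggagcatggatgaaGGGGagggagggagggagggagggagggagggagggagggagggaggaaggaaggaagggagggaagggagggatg
Mll2, minus strand, chr15:98670892-98670991: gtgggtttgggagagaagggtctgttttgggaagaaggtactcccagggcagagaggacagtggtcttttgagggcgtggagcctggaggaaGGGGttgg
Map2k2, plus strand, chr10:80574910-80575009: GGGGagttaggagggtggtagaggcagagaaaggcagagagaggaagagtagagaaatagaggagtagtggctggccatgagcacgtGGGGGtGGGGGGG
The windows were picked for their G over C, so their G content is a description. The Plec window is a GGGA repeat with 63 G and 1 C, and 4 of 9 untreated libraries covered it whole. In each of the other untreated libraries it lay in a break between peaks, although mean coverage of the Plec region was 98.0%. The Mll2 window holds 47 G and 11 C and was covered whole in 8 libraries, and the Map2k2 window holds 52 G and 7 C and was covered whole in 6. The same window in Gnas, not printed, holds 42 G and 12 C with no run of 4 G and was covered whole in 6. That of Fasn, not printed either, lies between genes at -190 bases from the start of Fasn. It holds 58 G and 21 C with 5 runs of 4 or more G and was covered whole in 9 libraries. A run of 4 G or 4 C, counted on either strand, lay in 55.7% of 100-base windows of wide regions, in 48.2% of those of other regions and in 34.6% of those of the genome. Median GC content was 51.4% in wide regions, 47.5% in the other regions and 49.8% in those of them with 2000 bases or more, and 41.8% in the genome. The CpG content over that expected from C and G was 0.262 in wide regions, 0.217 in other regions, 0.253 in those of them with 2000 bases or more and 0.191 in the genome.

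The wide regions were 3.14% of merged regions and 21.6% of their bases, with 16.5 Mb beside 60.1 Mb in the others. Their widths ran from 5001 to 27046 bases with a median of 6725 (quartiles 5657 and 8568), and 316 reached 10 kb and 13 reached 20 kb. A single deposited peak of 5000 bases or more lay in 1514 of them (69.3%), and the other 670 reached that width only through overlapping shorter peaks. In 233 regions each of the 9 libraries held such a peak. The threshold cut through a continuous range. Just inside lay a region of 5001 bases in Gm2792 and Tmem181b-ps and a region of 5002 bases in Med1, a subunit of the Mediator complex, and just outside lay regions 1 base short of it at the ends of Iqce and Gltscr2. Mean coverage over the 9 libraries was 88.3%, 72.3%, 65.7% and 88.6% in these 4.

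Nearly all wide regions recurred. A peak was called in 9 of 9 libraries in 2097 regions (96.0%), in 8 in 74, in 7 in 12 and in 6 in 1, whereas 7.97% of the other merged regions were called in all 9 and 46.8% in 1. Of the bases of wide regions, 94.97% were covered in at least 2 libraries, 76.2% in at least 5 and 38.6% in all 9. For the other regions these were 62.3%, 26.0% and 5.86%. A longer region has more chances to meet a peak. The median top fold enrichment over local background was 17.4 in wide regions and 5.42 in the others. It is the highest over all peaks of a region, and wide regions held a median of 23 peaks against 2. The highest fold of all was 151, in another region, against 114 in a wide one.

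Each library was also set against regions built from the other 8, which it had no part in choosing. The library left out called 98.5 to 100% of those wide regions and covered 59.3 to 87.7% of their bases (median 71.1%), against 19.3 to 48.3% of the bases of narrower regions (median 29.2%). Narrower regions of 2000 bases or more were closer, with 78.2 to 98.5% of them called and 35.3 to 74.7% of their bases covered. Among regions called in 8 of 8 of the choosing libraries, 60.1 to 88.3% of the bases of wide regions and 43.6 to 83.3% of the bases of narrower ones were covered.

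Most wide regions touched a gene. A protein-coding gene was touched by 2091 of them (95.7%), beside 84.6% of the other merged regions. Of the wide regions 682 touched 2 or more, 129 touched 3 or more, and the most was 5. An entire protein-coding gene lay inside 315 regions (14.4%), which also occurred in 0.205% of other regions. By position, 411 (18.8%) held a gene start and a gene end, 317 (14.5%) a start only, 549 (25.1%) an end only, 814 (37.3%) lay inside a gene, and 93 (4.26%) touched no protein-coding gene. Of the other merged regions, 75.7% lay inside a gene. Any annotated transcription start, of coding and noncoding transcripts alike, lay in 1270 wide regions (58.2%) and in 10.8% of the others.

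**Figure D1:**
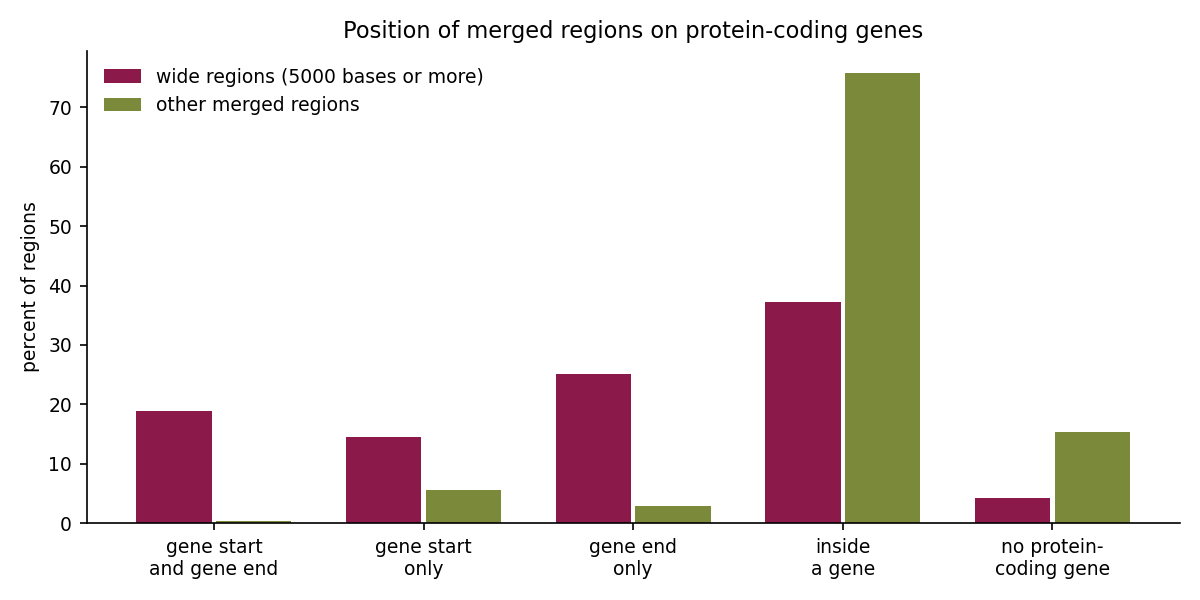
Percent of merged regions (vertical axis) in each position on protein-coding genes, for the 2184 wide regions and the 67313 other regions. The wide regions were spread over starts, ends and gene bodies, with 37.3% inside a gene against 75.7% of the other regions.

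Since a wider region reaches more starts and ends, both were also counted per Mb of region. Gene ends lay in wide regions at 87.3 per Mb, in other regions at 41.4 per Mb, in those of them with 2000 bases or more at 55.1 per Mb, and in the genome at 8.75 per Mb. Gene starts lay in wide regions at 55.7 per Mb, below the 75.3 per Mb of other regions and the 87.8 per Mb of those with 2000 bases or more. Wide regions thus held 1.57 gene ends per gene start, and other regions held 0.550. Of the bases of wide regions, 25.7% lay within 1 kb of a transcription start, and of the rest 18.1% of all bases lay in exons, 44.3% in introns and 11.9% between genes. Other regions had 21.8%, 11.8%, 53.6% and 12.8%, and the genome 4.00%, 2.33%, 34.6% and 59.1%.

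Around starts the peaks ran into the gene. Of the 913 nuclear gene starts in a wide region, 82.2% were under a peak in the mean library, and 3000 bases downstream 59.5% ± 7.78 of positions were covered against 34.5% ± 4.70 at the same distance upstream (SD, n = 9). In the lowest and highest library these were 48.9% and 71.3% downstream and 27.4% and 41.4% upstream, and the ranges did not overlap. At the 4523 starts in other regions the values were 11.8% ± 3.35 downstream and 6.06% ± 1.62 upstream (SD, n = 9). In the 260 wide regions with the start of a single gene and no end, the region reached a median of 4825 bases downstream and 1578.5 upstream, and 220 (84.6%) reached farther downstream. Regions that also touched another protein-coding gene are not among these 260, which limits how far they can reach outside the gene.

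Around ends the peaks were broad on both sides, with a higher mean coverage on the side of the gene. At the 1436 nuclear gene ends in a wide region 78.8% were under a peak in the mean library, with 59.8% ± 7.45 covered 3000 bases before the end and 51.6% ± 6.38 covered 3000 bases past it (SD, n = 9). The lowest and highest library had 48.3% and 68.1% before the end and 40.7% and 59.2% past it, and the ranges overlapped. In the 296 wide regions over the end of a single gene and no start, the region ran a median of 1924.5 bases past the end and 4728.5 bases before it, and 229 (77.4%) reached farther before it. The farthest reached 11690 bases past the end. Regions that also touched another protein-coding gene are not among these 296, which limits how far they can reach outside the gene. Of 418 wide regions with 2 or more gene ends, 245 held a convergent pair, in which neighbouring genes run toward each other, and of 158 with 2 or more gene starts, 77 held a divergent pair.

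**Figure D2:**
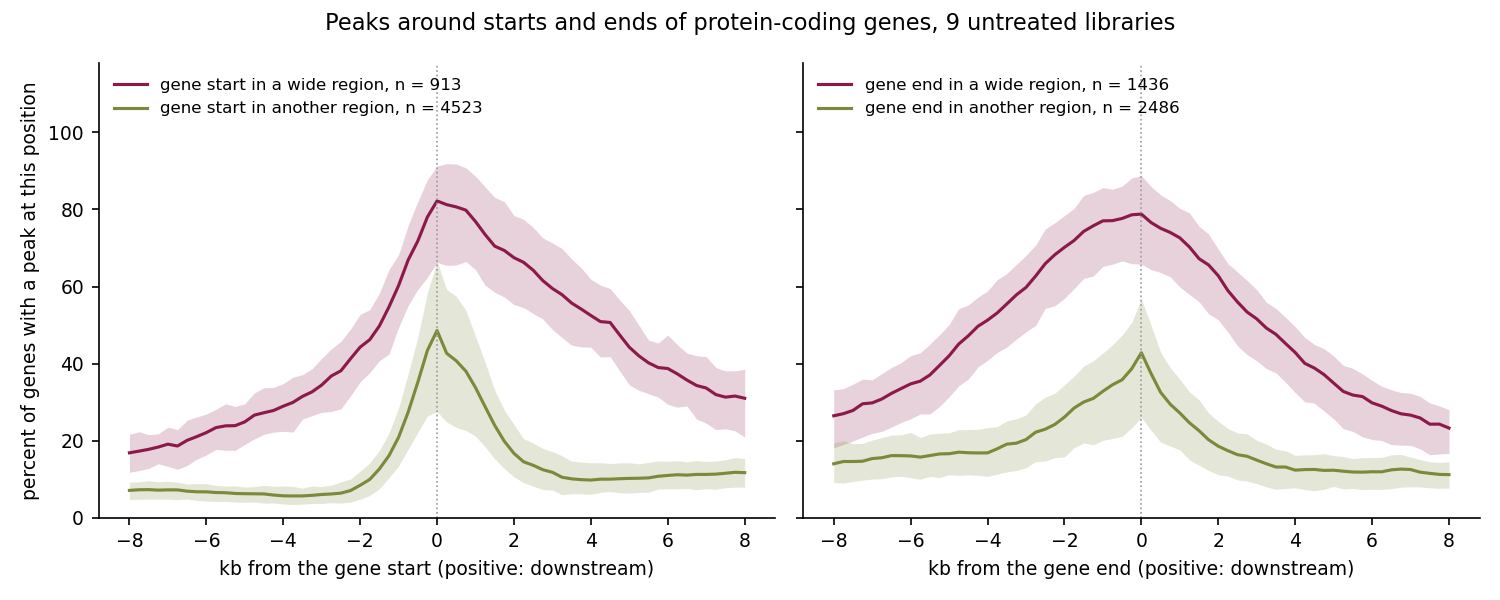
Percent of protein-coding genes with a peak at each distance from their start (left) or end (right), in steps of 250 bases, as the mean of 9 untreated libraries with the band from the lowest to the highest. In wide regions coverage fell more slowly downstream than upstream of starts, with 59.5% and 34.5% at 3000 bases, and around ends it was 59.8% at 3000 bases before and 51.6% at 3000 bases past them.

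The 778 wide regions inside a single gene lay toward its end. Their middle stood at a median of 64.8% of the way from start to end (quartiles 42.7 and 80.1%), with 122 in the first part of the gene when it was cut into 3 equal parts, 297 in the middle part and 359 in the last. These genes had a median length of 42676 bases, and the region spanned a median of 15.3% of its gene. Genes whose start lay in a wide region were shorter, with a median of 7126 bases over 919 genes, against 23022 bases for the 4523 genes with a start in another region and 14349 bases for genes with no region at their start. GC skew over the first kb, G minus C over their sum on the coding strand, had a median of 0.054 at starts in wide regions, 0.063 at starts in other regions and 0.031 at starts with no region.

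Some genes were covered by several wide regions. Of the 2438 protein-coding genes that touched one (10.9% of all), 2094 touched 1, 284 touched 2 and 39 touched 3. Gm20388, an annotated read-through gene of 4434882 bases, held 38, but only 2 of these touched no other protein-coding gene. Agap1, a regulator of membrane traffic, held 10 wide regions over 440477 bases, and Ubr4, a large ubiquitin ligase, held 9 over 136980 bases. Pcbp3, which binds poly(C) RNA, held 9, the septin gene Sept9 held 7, and Mapt, which encodes the neuronal protein tau, held 6. In Ret, a receptor tyrosine kinase of sympathetic neurons and neuroblastoma, 5 wide regions took up 35029 bases beside a gene length of 45997. These genes were picked for their counts after the values were seen.

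The widest region of all spanned 27046 bases on chromosome 10 (chr10:126716039-126743084) and held parts of Dctn2, a dynactin subunit, and Mars, the methionyl-tRNA synthetase, with all of Mbd6 and of Ddit3, the stress transcription factor CHOP. Peaks covered 94.9, 97.9 and 98.6% of it in the libraries labelled siScramble, 96.4, 92.9 and 93.8% in those labelled siDDX1, and 94.2, 94.5 and 96.7% in those labelled siEXOSC3. No library fell under 92.9%, and the groups overlapped. The widest single peak there had 19695 bases and the region held 20 cut positions. Its highest fold enrichment was 63.1.

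Fasn, the fatty acid synthase, lay whole in a region of 23556 bases (chr11:120664115-120687670) together with its end and flank. Coverage was 89.0, 88.2 and 91.9% in siScramble, 93.3, 81.6 and 88.5% in siDDX1, and 89.7, 90.3 and 91.5% in siEXOSC3. The groups overlapped, and 1 peak spanned up to 21120 bases. The EcoRI site printed above closes its left side, past the gene's end. All 3 RNase H libraries kept a peak at that left side, which took up 1070, 1070 and 710 bases in the siScramble, siDDX1 and siEXOSC3 libraries and lay beyond the end of the gene.

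Over the last part of Plec, which encodes the cytoskeletal linker plectin, a region of 21391 bases (chr15:75998959-76020349) was covered at 95.5, 96.2 and 99.6% in siScramble, 100, 95.8 and 99.7% in siDDX1, and 100, 97.7 and 97.8% in siEXOSC3. A single peak made up the whole of it in 1 library. It held 5 cut positions, and the longest fragment it touched had 8597 bases. The only RNase H peak in it had 242 bases, in siEXOSC3.

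**Figure D3:**
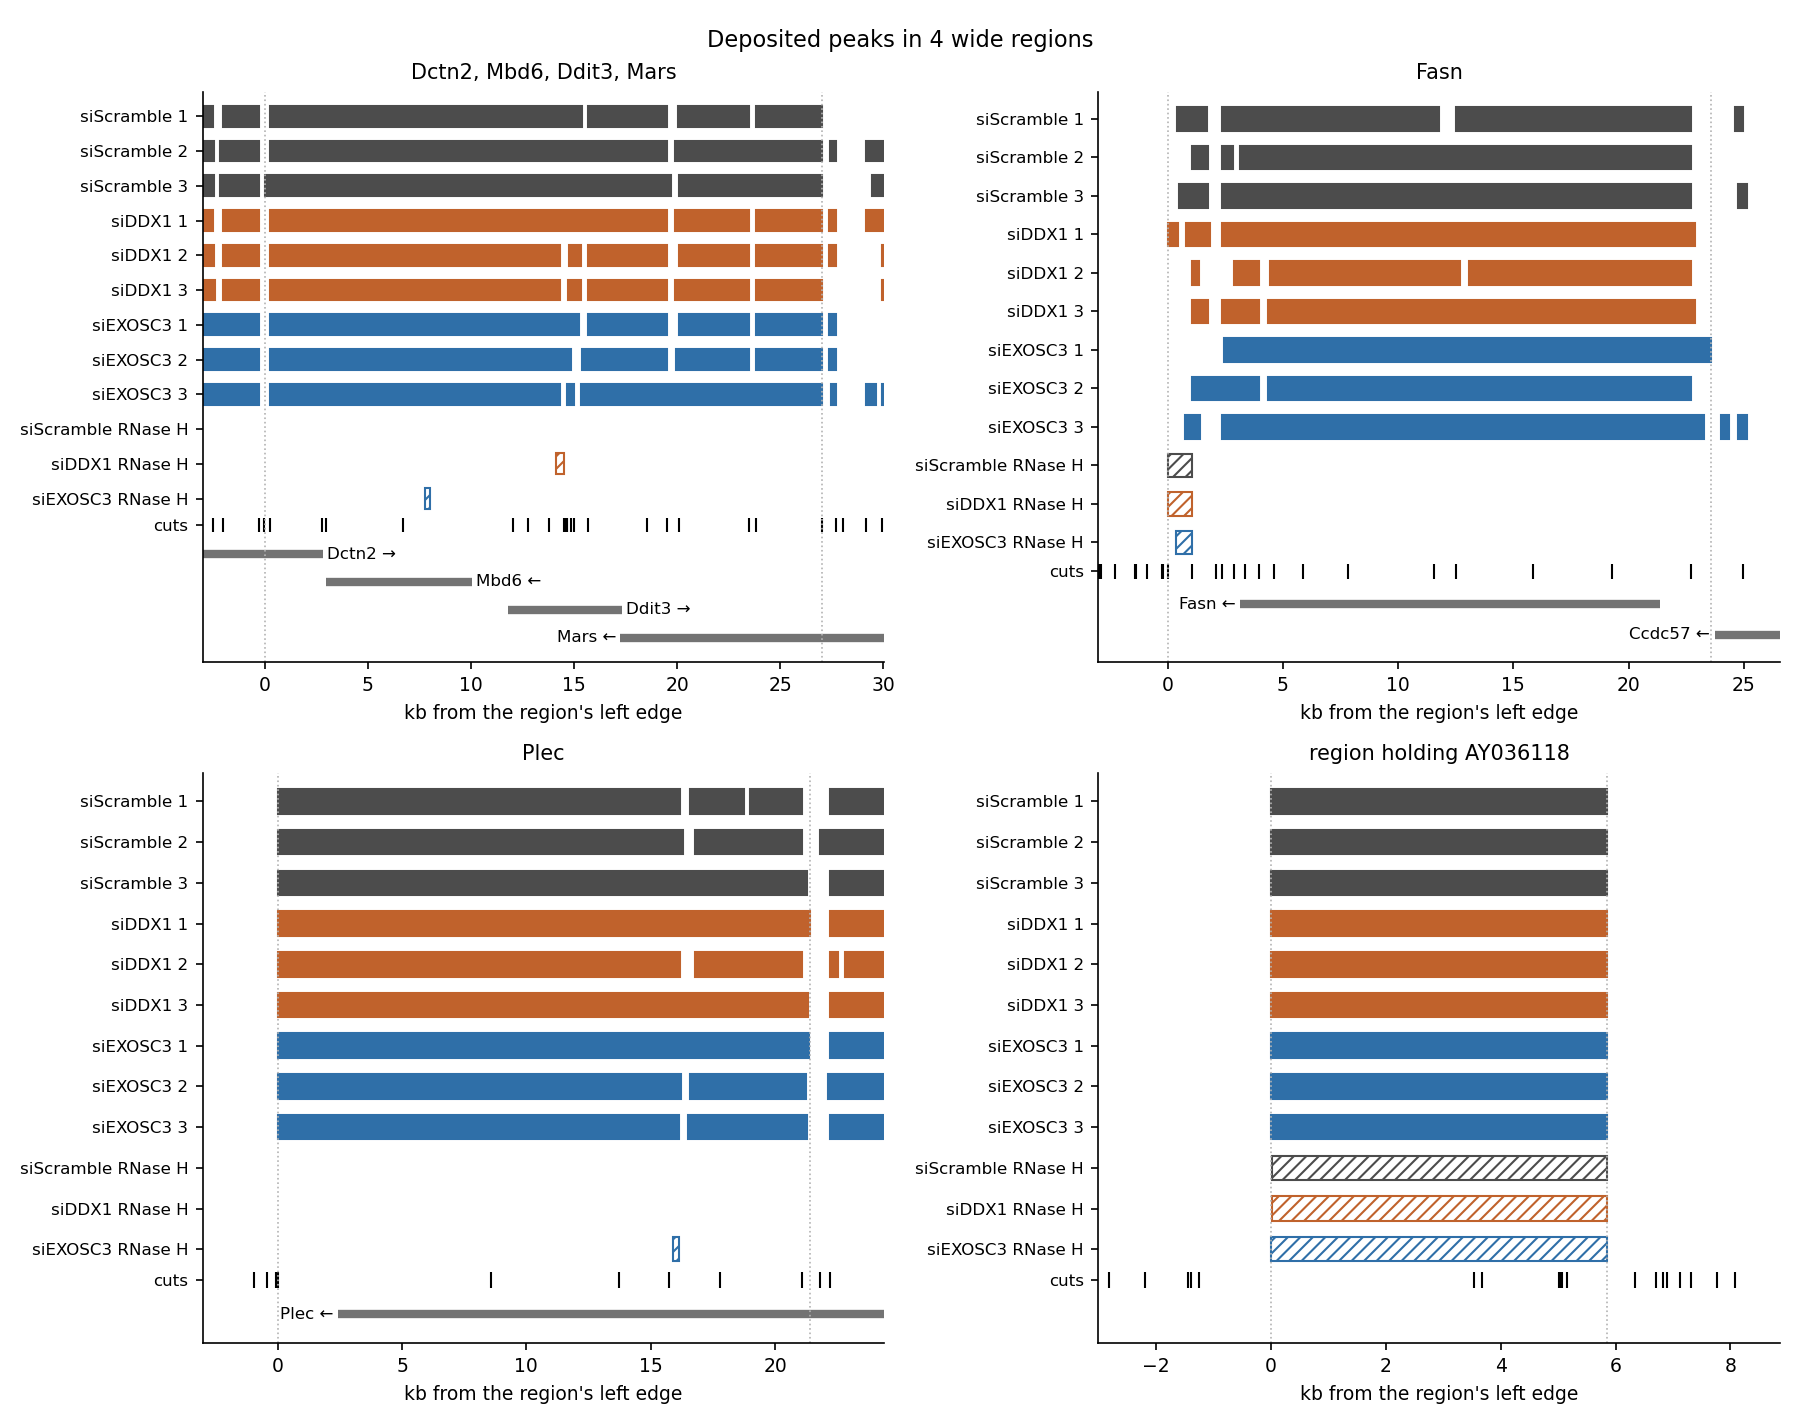
Deposited peaks of the 9 untreated libraries (solid bars) and the 3 RNase H libraries (hatched bars) in 4 wide regions, with cut positions of the 5 enzymes and protein-coding genes (arrow: direction of transcription) below, along the distance in kb from the region's left edge. Peaks of the untreated libraries nearly fill the regions, and RNase H libraries keep short peaks in the first 3 but 5830 to 5839 of 5858 bases in the region that holds AY036118.

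The other 7 of the 10 widest regions were 20221 to 24689 bases wide. They held Grk6, Prr7 and Dbn1 (a receptor kinase, a synaptic proline-rich protein and the actin binder drebrin), Lrrc4b, Aspdh and Josd2, Rundc3a and Slc25a39, Mll2, Gnas and Map2k2, among others. Mean coverage over the 9 libraries ran from 74.4% in Gnas, which encodes a G protein alpha subunit, to 89.6% in Map2k2, the kinase MEK2. In Mll2, a histone methyltransferase, the region lay inside the gene and 1 peak spanned 20707 bases. In Rundc3a and Slc25a39 a single peak of 23761 bases, the whole region, was called in the second library labelled siScramble. Libraries with fewer peaks covered less of several of these. In Gnas coverage was 58.5, 88.4 and 86.2% in siScramble, 89.5, 59.7 and 67.8% in siDDX1, and 63.4, 76.6 and 79.4% in siEXOSC3, so that each group held low and high libraries.

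The highest fold enrichments stood in narrower members. A peak at the ends of Heatr7a and Bop1, the latter a ribosome biogenesis factor, reached 114 in a region of 11692 bases (chr15:76273438-76285129). The region around AY036118 reached 109, and that of Rpl36 and Lonp1, a ribosomal protein and a mitochondrial protease, reached 105 over 8394 bases. In Heatr7a and Bop1 coverage was 87.8, 86.3 and 94.5% in siScramble, 88.5, 83.9 and 83.6% in siDDX1, and 84.0, 84.5 and 93.7% in siEXOSC3, with overlapping groups. All 3 RNase H libraries kept peaks in that region, over 2249, 262 and 259 bases in siScramble, siDDX1 and siEXOSC3.

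Gene lists were read by how many of their genes touched a wide region, beside 10.9% of all 22380 protein-coding genes. They were not tested for enrichment, and gene length and expression were not taken into account. The lists also differ in how many genes touched a merged region of any width, which 10805 of all protein-coding genes did. These were 80 of 85 ribosomal protein, 36 of 37 housekeeping and 21 of 23 immediate early genes. All 14 exosome, 23 R-loop and 36 splicing genes did, and 21 of 27 neuroblastoma genes. The 10.9% is thus a low background for such lists. In the other lists 12 of 22 nuclear long noncoding RNAs, 32 of 67 replication-dependent histone genes and 4 of 40 Hox genes touched a merged region of any width. Of 85 cytosolic ribosomal protein genes 44 touched one (51.8%), and 37 had their start in one. Of 37 highly transcribed housekeeping genes 19 did (51.4%). The region of Rps18 with Wdr46, B3galt4 and Vps52 had 14765 bases and mean coverage of 88.9% and that of Rpl22 had 11399 bases and 75.6%. Around Eef2, a translation elongation factor, 10035 bases were covered at a mean of 81.2%, and around Hsp90ab1, a chaperone, and Slc35b2 11361 bases at 88.1%.

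**Figure D4:**
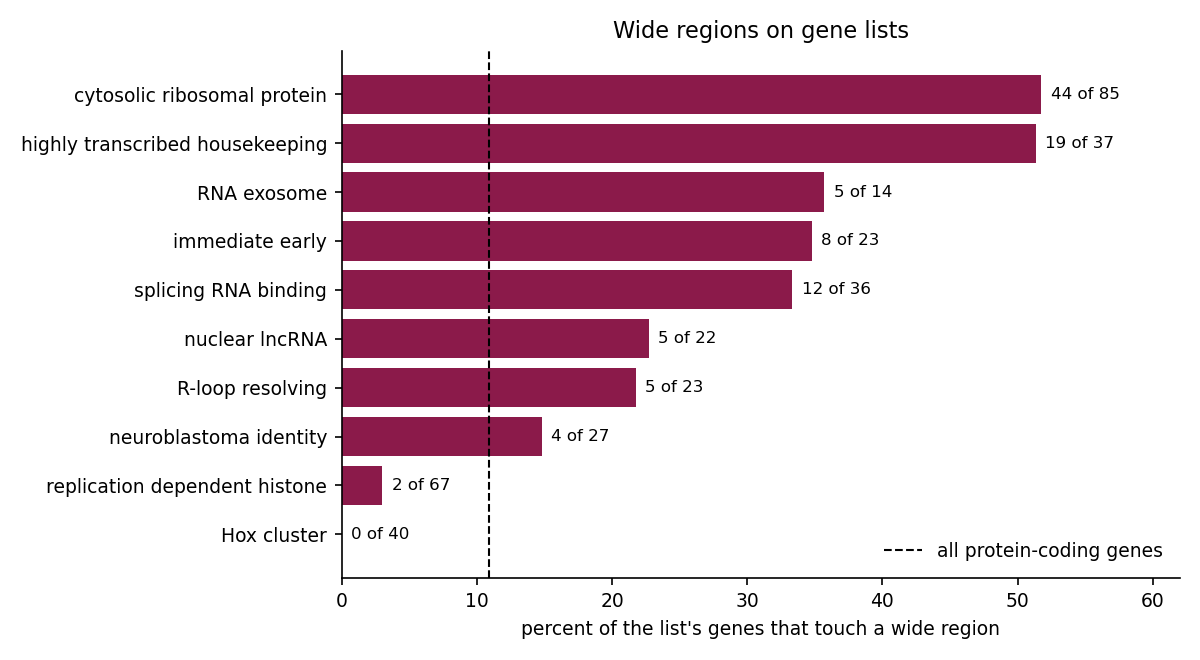
Percent of the annotated genes of each list that touch a wide region (bars, with counts), beside all protein-coding genes (dashed line at 10.9%). Cytosolic ribosomal protein genes (51.8%) and housekeeping genes (51.4%) have the longest bars. No gene of the Hox clusters touched a wide region, where 4 of 40 touched a merged region of any width.

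Among 23 immediate early genes, which respond to growth signals and stress within minutes, 8 touched a wide region (34.8%): Atf3, Egr1, Egr3, Fosl2, Jund, Klf10, Myc and Zfp36. Myc lay whole in a region of 8424 bases from HindIII cut to HindIII cut (chr15:61815728-61824151), covered at 87.5, 100 and 100% in siScramble, 96.1, 63.8 and 73.0% in siDDX1, and 83.7, 86.4 and 75.02% in siEXOSC3. All 3 values of siEXOSC3 lay below all 3 of siScramble, and the range of siDDX1 overlapped both. Klf10, a zinc finger factor, had a region of 7525 bases over its start with a mean coverage of 71.1%. Atf3, a stress transcription factor, is described with the groups below.

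Of 14 genes of the RNA exosome, to which EXOSC3 belongs, 5 touched a wide region (35.7%): Exosc1, Exosc2, Exosc4, Exosc7 and Exosc10. The start of Exosc7 lay with that of Zdhhc3 in 5340 bases covered at a mean of 79.0%. Of 23 genes that resolve or prevent R-loops, 5 did (21.7%), among them Ddx5, Dhx9, Rnaseh2a and Thoc5. The start of Ddx5, a DEAD box helicase, lay with that of its neighbour Ccdc45 in 8193 bases (chr11:106642927-106651119) covered at 100, 100 and 100% in siScramble, 100, 100 and 95.9% in siDDX1, and 93.4, 100 and 93.6% in siEXOSC3. The region of Rnaseh2a, the catalytic subunit of RNase H2, and Prdx2 had 6037 bases and a mean coverage of 45.9%. The siRNA targets themselves were not members: Ddx1 held 5 merged regions of at most 4696 bases, and Exosc3 held 1 of 810 bases, called in 3 libraries.

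Of 36 splicing and RNA-binding genes 12 touched a wide region (33.3%), with 17147 bases around Hnrnpab and Agxt2l2, 9825 bases over the start of U2af1, a splice site factor, and 5746 bases with Ewsr1. Among 22 nuclear long noncoding RNAs 5 did (22.7%). Neat1, the scaffold RNA of nuclear paraspeckles, touched a region of 11159 bases that also held the end of Frmd8 (chr19:5842362-5853520), covered at a mean of 85.2%, and Malat1, a nuclear speckle RNA, touched a region of 8080 bases covered at 83.1%.

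Of 27 genes of neuroblastoma identity 4 did (14.8%): Chga, Gata2, Phox2a and Ret. Of 67 replication-dependent histone genes 2 did (2.99%), both in the region of 7447 bases around Hist3h2ba, Hist3h2a and Trim17. Of 40 Hox genes none did, and only 4 of them touched a merged region of any width. R-loop peaks check the label of the cells only in part. Of 12 markers of neuroblastoma 2, Phox2a and Tubb3, had a region at their start, in 9 of 9 libraries each, and the starts of Th, Dbh and the rest had none. Of 9 markers of liver, blood and glia, Gfap alone had a region at its start, in 4 libraries.

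On chromosomes the wide regions were, among nuclear chromosomes, most dense on chromosome 11, with 2.43 per Mb, then on chromosomes 15 (1.80), 8 (1.47) and 17 (1.45), and sparse on the X, with 0.0925 per Mb and 15 in all. The Y, of which the build holds 2.70 Mb, had none. Of a chromosome's merged regions, 4.91% were wide on chromosome 15, 4.34% on 11, 4.03% on 10, 4.01% on 17 and 3.78% on 8. The share was 1.62% on the X and 1.55% on chromosome 13, against 3.14% over all merged regions. Chromosome 11 carries 13.9 protein-coding genes per Mb and chromosome 17 carries 11.9, whereas chromosome 15, the next most dense in wide regions, carries 7.94. Chromosome 7 carries the most genes per Mb of the nuclear chromosomes, 14.6, and had 1.09 wide regions per Mb. The part of gene density or of chromosome copy number in the order per Mb was not tested. Of the 93 wide regions without a protein-coding gene, 62 had no annotated gene at all and 15 had a lincRNA.

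The groups were compared over libraries. Peaks covered 63.8, 80.5 and 84.7% of the bases of wide regions in siScramble, 87.0, 59.2 and 67.7% in siDDX1, and 68.7, 70.9 and 80.2% in siEXOSC3. The highest and the lowest library were both labelled siDDX1, and the groups overlapped. The means were 12.6 ± 1.83 Mb for siScramble, 11.8 ± 2.35 Mb for siDDX1 and 12.1 ± 1.01 Mb for siEXOSC3 (SD over 3 libraries). No difference was detected over the 3 groups (exact permutation test of F over 280 splits of log2 covered bases, p = 0.832, adjusted p = 1). siDDX1 against siScramble differed by a log2 value of -0.11 and siEXOSC3 against siScramble by -0.05 (p = 0.8 in each two-sided exact permutation test, adjusted p = 1), where 20 assignments allow no p below 0.1.

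The share of a library's own peak bases that fell in wide regions was 45.5, 33.5 and 32.0% in siScramble, 31.7, 44.5 and 39.7% in siDDX1, and 40.1, 38.5 and 33.4% in siEXOSC3. The means were 37.0 ± 7.39, 38.6 ± 6.47 and 37.3 ± 3.51% (SD, n = 3 each), and no difference was detected (exact permutation p = 0.975, adjusted p = 1). The libraries with the highest shares, 45.5 and 44.5%, were those with the least peak bases, 23.2 and 22.0 Mb, and the lowest share, 31.7%, was in the library with the most, 45.3 Mb. Adjusted p-values are over 11 tests, and those not printed also had an adjusted p = 1 in exact permutation tests. The test of the number of wide regions called says nothing on the groups, since the choice of regions left 2151 to 2184 called in each library.

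**Figure D5:**
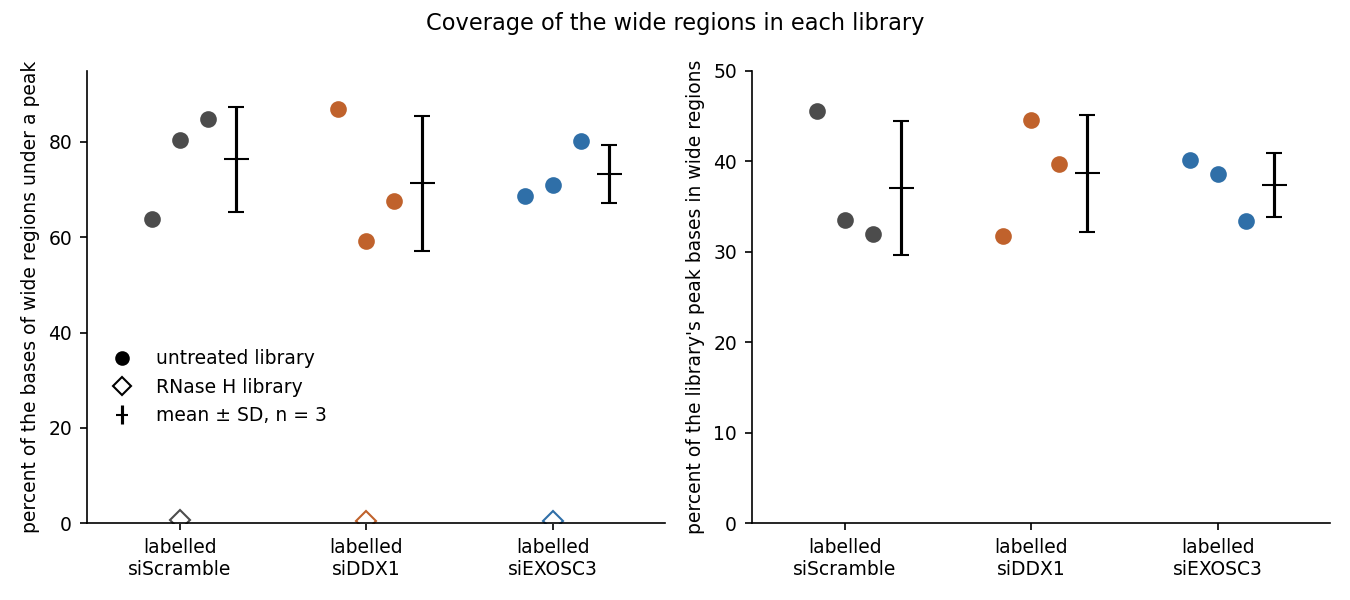
Percent of the bases of wide regions under a peak (left) and percent of each library's peak bases that lie in wide regions (right), by labelled group, with 1 point per untreated library, bars for the mean ± SD (n = 3) and open diamonds for the RNase H libraries. Groups overlap in both panels, and the RNase H libraries lie at 0.396 to 0.748% in the left panel.

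Single regions were sorted by whether the covered fraction in the 3 libraries of a group lay wholly above or below that in the 3 libraries of another. siEXOSC3 lay below siScramble in 206 wide regions (9.43%), where 2.23% of all merged regions did, and above it in 133 (6.09%), where 1.93% did. siDDX1 lay below siScramble in 59 (2.70%, against 1.31% of all) and above in 16 (0.733%, against 0.578%). siEXOSC3 lay above siDDX1 in 79 (3.62%, against 1.64%) and below in 90 (4.12%, against 1.49%). Most merged regions are absent from most libraries and can hardly separate, and among the other regions of 2000 bases or more the shares were closer: 7.21% and 6.13% for siEXOSC3 below and above siScramble, 3.22% and 1.39% for siDDX1, and 5.19% and 4.59% for siEXOSC3 below and above siDDX1. The wide regions had the higher share for siEXOSC3 below siScramble and the lower share in the other 5, and the differences were not tested. When each library was cut to the 23882 peaks with the highest q-value rank, an alternative chosen after seeing the data, 11.4% of wide regions lay below and 7.08% above for siEXOSC3 against siScramble, where 3.1% and 2.56% of all merged regions and 8.97% and 6.94% of the other regions of 2000 bases or more did.

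The regions with the largest gaps, except that at Necab3 and 1700003F12Rik, were lowly covered or at 0 in some libraries of the lower group. In Pla2g2e, a secreted phospholipase, 6367 bases were covered at 52.2, 63.8 and 86.5% in siScramble, 69.4, 27.7 and 33.5% in siDDX1, and 0, 0 and 11.3% in siEXOSC3. At Osgin1 and Necab2 5013 bases were covered at 0, 8.02 and 6.58% in siScramble, 45.9, 0 and 0% in siDDX1, and 55.4, 65.5 and 85.6% in siEXOSC3. In both the siEXOSC3 libraries stood apart from siScramble, and the siDDX1 libraries were split.

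At Necab3 and 1700003F12Rik (chr2:154369285-154375227) coverage was 82.2, 83.1 and 85.5% in siScramble, 43.9, 32.1 and 47.1% in siDDX1, and 100, 78.0 and 81.2% in siEXOSC3, so that siDDX1 alone was low. In Rps6kl1 it was 0, 10.4 and 17.7% in siScramble, 76.2, 35.7 and 44.4% in siDDX1, and 22.9, 14.2 and 42.1% in siEXOSC3. In Prune2, 5213 bases were covered at 38.6, 74.3 and 84.4% in siScramble, 89.9, 59.0 and 59.3% in siDDX1, and 9.82, 12.5 and 17.0% in siEXOSC3. These regions were picked for their gap among all wide regions, so their values carry no test.

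Among the members named for their gene list, siEXOSC3 lay wholly below siScramble at Myc, Atf3, Tuba1a, Malat1 and Hnrnpab with Agxt2l2, and wholly above it at Hsp90ab1 with Slc35b2. In the other members named for a gene list the same groups overlapped. Of all wide regions 9.43% lay wholly below and 6.09% wholly above for this pair. Of the other regions of 2000 bases or more 7.21% and 6.13% did. These members were picked because they separated, and none was tested. Over the start of Atf3, 9712 bases (chr1:193002139-193011850) were covered at 86.7, 95.6 and 95.6% in siScramble, 95.6, 79.3 and 82.9% in siDDX1, and 53.1, 50.9 and 55.7% in siEXOSC3. In Tuba1a, an alpha tubulin of neurons, 14675 bases were covered at 90.2, 79.6 and 86.4% in siScramble, 94.3, 51.7 and 51.6% in siDDX1, and 48.6, 66.8 and 48.5% in siEXOSC3. The siEXOSC3 libraries were the lowest 3 at Atf3, and at Tuba1a they lay below all of siScramble but not apart from siDDX1. At Hsp90ab1 and Slc35b2 coverage was 75.3, 81.5 and 89.5% in siScramble, 95.2, 86.3 and 85.0% in siDDX1, and 92.1, 95.4 and 92.4% in siEXOSC3, the opposite direction.

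Little of the wide regions was under a peak after RNase H. Peaks of the RNase H libraries covered 0.748% of their bases for siScramble, 0.396% for siDDX1 and 0.464% for siEXOSC3, where the lowest untreated library covered 59.2%. The same RNase H libraries covered 1.39, 0.919 and 1.13% of the bases of other merged regions, and 0.164, 0.0770 and 0.0782% of the genome. A remaining RNase H peak touched 140 wide regions (6.41%) in siScramble, 68 (3.11%) in siDDX1 and 88 (4.03%) in siEXOSC3. With 1 RNase H library per group, these were not tested. In total, 198 wide regions (9.07%) met a peak in any of the 3, and 30 met one in all 3, against 2.97% with any among other regions and 3.38% among those of them with 2000 bases or more. The 9.07% became 4.32% with peaks of a −log10 q of at least 5 and 2.70% when an RNase H peak had to cover at least 10% of the region.

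The remaining peaks were mostly small. In the 198 regions they covered a median of 5.60% of the region, and their median width was 409 bases in the siScramble library, 388 in siDDX1 and 366 in siEXOSC3. By position, a remaining peak touched 20.4% of the wide regions with no protein-coding gene, 12.9% of those over a start only, 9.98% of those with start and end, 7.47% of those over an end only and 6.88% of those inside a gene. Besides Fasn, remaining peaks in all 3 libraries lay in the widest such regions at Lrrc4b, Aspdh and Josd2, with 6382, 4034 and 6167 of 24597 bases in the siScramble, siDDX1 and siEXOSC3 libraries, at Tuba1c, an alpha tubulin, with 1324, 325 and 840 of 16889 bases, and at Ifi35, Vat1 and Rnd2, with 666, 307 and 434 of 13347 bases. The region of Heatr7a and Bop1, described above, also kept a peak in all 3.

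In 9 regions RNase H peaks of any library covered at least 50% of the region, and these were named after their values were seen. Both wide regions of the mitochondrial genome were among them. The one with mt-Nd1, mt-Nd2 and mt-Co1, subunits of respiratory complexes I and IV, kept 6228, 6093 and 6576 of 6714 bases in siScramble, siDDX1 and siEXOSC3. The one with mt-Nd4, mt-Nd5, mt-Nd6 and mt-Cytb kept 5068, 5072 and 5101 of 5348 bases. The fold enrichment there fell from at most 40.8 and 25.6 in untreated libraries to between 7.47 and 9.31 and between 3.49 and 5.70 after RNase H.

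The region around AY036118 (chr17:39979930-39985787) kept 5834, 5830 and 5839 of its 5858 bases, with a fold enrichment of 49.2, 51.5 and 58.1 in the RNase H libraries beside at most 109 in the untreated ones. The annotation names a pseudogene there and no protein-coding gene. The 100 bases around the highest point of the RNase H peak in siScramble (plus strand) are shown because the RNase H peaks were highest there.
AY036118 region, chr17:39984481-39984580: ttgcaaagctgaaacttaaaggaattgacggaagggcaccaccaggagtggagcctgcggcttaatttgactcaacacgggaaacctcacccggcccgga
As background, these letters belong to 18S ribosomal RNA, whose genes lie in long repeat arrays that genome builds leave out, so reads from many copies may be placed on 1 copy. Its GC content was 64.8%, and no edge of it lay on a cut.

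The other 6 were in the nuclear genome. A region of 5284 bases between genes on chromosome 11 (chr11:83079667-83084950) had 5284, 4650 and 5284 bases under RNase H peaks, with a fold enrichment up to 17.4 beside 12.2 in the untreated libraries. The untreated libraries covered less of it, with 5.98, 48.2 and 23.7% in siScramble, 86.4, 26.2 and 49.9% in siDDX1, and 55.4, 45.3 and 89.6% in siEXOSC3. In Pnkd RNase H peaks reached a fold of 21.5 beside 10.7 in untreated libraries, and they took up 5244, 330 and 650 of 6042 bases, where untreated libraries covered 5.46 to 73.9%. In Tulp3 RNase H peaks took up 3095, 1858 and 710 of 5441 bases and in Get4, which hands tail-anchored proteins to membranes, 4095, 1538 and 0 of 5647, where untreated libraries covered 7.30 to 89.4% of the Tulp3 region and 27.5 to 100% of the Get4 region. In Ncl, the nucleolar protein nucleolin, 4749, 785 and 3021 of 7971 bases were under RNase H peaks, and the fold fell from 65.0 to at most 7.71. In Mid1, a gene that crosses the boundary of the pseudoautosomal region of the X in laboratory mice, 1077, 1438 and 2451 of 6394 bases were, and the fold fell from 63.3 to at most 10.2. Without the mitochondrial regions and AY036118, 195 of 2181 wide regions (8.94%) met an RNase H peak, and 0.971% of their bases were covered by any of the 3 libraries, against 1.08% with them.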

How the data were processed

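DRIP-seq peak lists of 12 libraries were used. The 1 input sample was not analysed here. Per the study's methods and the submitters' processing notes, the authors aligned reads to mm9 with Bowtie2 2.4.4 and called peaks in each library against input with MACS2 2.2.6. The deposited lists give per peak a display score (not used), fold enrichment over local background as a linear ratio, and −log10 p-values and q-values, each as the authors' caller wrote them. They hold no read counts, so depth is unknown and no count model could be run. Restriction digestion before the pull-down can lengthen a peak to the ends of its DNA fragment.

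Peaks of the 9 untreated libraries that overlapped or touched were merged in Python 3.11.15 (pandas 2.3.3, numpy 2.4.6). Covered bases, gene positions (GENCODE vM1 on NCBIM37, the same build as mm9) and exact cut positions of the 5 enzymes were computed for each region. A gene start or end is that of the annotated gene. Sequences were read from NCBIM37. Groups were tested with exact permutation over libraries, with Benjamini-Hochberg adjustment over 11 tests. The code was tested on simulated data. The members and lists were chosen with earlier results of these data known. Named regions are the 10 widest, the 3 of highest fold, those with most RNase H libraries, the largest gap per pair of groups and direction, those beside the width threshold and up to 3 per gene list. Alternatives changed the width, the joining of peaks, the q-value, the number of peaks and libraries, the overlap and the starts counted. Some named items are not reported here.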

Additional observations from a re-analysis of the deposited data

How the results depend on the processing

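The number of wide regions (2184) became 3465 with a width of 4000 bases, 662 with 8000 bases and 4493 with peaks up to 1000 bases apart joined, and the number called in all 9 libraries (2097) became 3186, 659 and 3583. A −log10 q of at least 5, an equal number of peaks, bases covered in at least 2 of 9 libraries and a single peak of 5000 bases or more left both counts within 1.5 times. The percent over a transcription start (58.2%) was 53.6% with 4000 bases, 70.9% with 8000 bases, 62.1% with a single peak of 5000 bases and 42.0% with protein-coding transcripts only. The percent with an RNase H peak (9.07%) was 7.36%, 13.0% and 10.6% under the first 3 of these, 4.32% with a −log10 q of at least 5 and 2.70% with an overlap of at least 10% of the region. The cause of these moves was not tested. Leaving out 1 library at a time gave 1978 to 2155 wide regions, 1918 to 2099 called in all, 57.9 to 58.9% over a start and 8.99 to 9.43% with an RNase H peak. The F over 3 groups ran from 0.058 to 1.61 for covered bases and from 0.016 to 1 for the share. The difference of siDDX1 from siScramble (log2 -0.11) ran from -0.25 to 0.015, turning positive without siDDX1 replicate 2, and that of siEXOSC3 (log2 -0.05) from -0.17 to 0.035, turning positive without siScramble replicate 3. The lowest exact permutation p was 0.2 among 36 tests with 1 library left out and 0.7 among the other 32.

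Samples with the same replicate number did not deviate together: correlations of their deviations from the group means over wide regions ran from -0.22 to 0.366 in 9 pairs, and 4 of 9 libraries were closest to a library of their own number. With the replicate block, F was 0.205 for covered bases and 0.0726 for the share, and the log2 differences stayed at -0.11 and -0.05 (exact permutation p = 0.861, 1, 1 and 0.75). Depth is unknown, and a region counts as covered only where the peak caller passed its threshold.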
